A study of Mus musculus with 3 samples.

Results

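The cells described here are macrophages of uninjured mouse hearts, divided by whether RNA of the reporter tdTomato was counted in them. The measured TdTomato UMIs of these cells are the values the 2 sets were chosen by. They came from 1 of the 3 single-cell libraries of the series, which holds heart macrophages at steady state. A cell was taken as a macrophage when at least 500 genes were detected, at most 10% of its UMIs (unique molecular identifiers, each standing for 1 captured RNA molecule) came from mitochondrial genes, and C1qa, C1qb and C1qc together made up at least 40 of every 10000 UMIs. Of 1806 barcodes, 1767 passed the first 2 conditions and 1722 passed all of them. A cell was called TdTomato-positive with at least 1 TdTomato UMI, which held for 232 of the 1722 macrophages, and the remaining 1490 were negative. The whole series holds 8283 barcodes.

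The steady-state mice were C57BL/6 with the genotype Cx3cr1CreER-YFP/+:R26Td/+ and were 8 to 12 weeks old. Positive and negative cells share this genotype, since they were sorted together. Each mouse thus carried, at 1 Cx3cr1 allele, a tamoxifen-inducible Cre with a yellow fluorescent protein, and at 1 Rosa26 allele a tdTomato that Cre switches on. The second reporter library, used here only for side-by-side values, came from mice of the same strain, genotype and age range on day 11 after myocardial infarction. The third library came from wild-type mice and has no TdTomato entry. The sort for macrophages took live cells positive for CD45, CD64 and CD11b from enzyme-digested hearts. When tamoxifen was given, and how many animals went into a library, is not stated in the sources used here. Of the 1722 macrophages, 409 had a UMI of a Y-linked gene and no Xist UMI, and 642 had an Xist UMI and no Y-linked UMI. A further 363 had both and 308 had neither, so the library held RNA of both sexes. Why both were found in 1 barcode was not tested. Each group is 1 library, so no difference below can be set against a spread between animals, no test was possible, and every interval is a 95% interval for counting error only.

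Macrophages of the adult heart have different origins. Some descend from embryonic precursors and renew themselves in the tissue, and these are known for Timd4, Lyve1 and Folr2, while others are replaced from blood monocytes and are known for Ccr2 and, in part, for high MHC class II. Monocytes and most heart macrophages transcribe Cx3cr1. In this mouse a pulse of tamoxifen makes Cre cut the stop signal before tdTomato in any Cx3cr1-expressing cell, and the mark is passed on to daughter cells. Blood monocytes are short-lived and lose the mark by turnover, whereas a long-lived resident cell keeps it. The fluorescence of the protein, by which such cells are usually sorted, was not part of these counts, and TdTomato RNA in a droplet library is a sparse readout of the allele.

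The macrophage label held in the RNA. C1qa, C1qb and C1qc, which chose the cells, were present in all of them. Among markers that the rule did not use, Csf1r, the receptor of the main macrophage growth factor, was detected in 99.6% of positive and 99.5% of negative cells, and Adgre1 (F4/80) in 96.6% and 96.7%. Fcgr1, which encodes the CD64 of the sort, was detected in 90.1% and 83.4%. Cd68 was detected in 98.3% and 97.4%, Ptprc in 86.2% and 81.3%, Itgam in 73.7% and 66.9%, and Mertk in 36.2% and 28.6%. These sets were not matched for depth, with medians of 15526 UMIs in positive and 10440.5 in negative cells. The cell nearest above the complement threshold had 40.1 C1q UMIs per 10000, and the cell nearest below it had 39.7. The steady-state library shared 8 barcodes with the day 11 library and 7 with the wild-type library, and 2 of each belonged to positive cells.

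TdTomato RNA was scarce. The 232 positive cells held 309 TdTomato UMIs, and the level over all macrophages was 13.4 UMIs per 1000000 UMIs (CPM). In 197 positive cells, 84.9% of them, the call rested on a single UMI. A further 26 cells had 2 UMIs, and 9 cells had 3 to 10. Those 9 cells, 0.523% of macrophages, held 60 of the 309 UMIs. EYFP, transcribed from the Cx3cr1 locus itself, was detected in 39.95% of the same macrophages at 47.4 CPM, and CreERT2 in 1.34% at 1.04 CPM. Among the 45 cells of the library that passed the quality conditions but not the complement threshold, 1 had a TdTomato UMI (2.22%, exact Clopper-Pearson interval 0.0562% to 11.8%), at a median of 9403 UMIs per cell against 10890 in the macrophages. In macrophages the share was 13.5% (11.9% to 15.2%), so at full depth the interval of the 45 other cells ends just below that of the macrophages. At equal depth the intervals overlap. With 5000 randomly drawn UMIs per cell, 0 of 33 other cells had one (up to 10.6%), against 5.76% (4.67% to 7.01%) of macrophages. With 3000 UMIs the shares were 2.22% (0.0562% to 11.8%) and 3.95% (3.08% to 4.98%).

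Whether a cell was called positive depended on how deeply it was read. Positive cells had a median of 15526 UMIs and 3489.5 genes, and negative cells had 10440.5 UMIs and 2930 genes. When macrophages were ordered by total UMIs and divided into 10 bins of equal size, 5.202% of the shallowest bin (median 4416 UMIs) and 27.3% of the deepest bin (median 29364.5 UMIs) were positive. The TdTomato level did not follow this course. It lay between 10.4 and 22.4 CPM across the bins, and between 7.80 and 15.01 CPM when the 9 cells with 3 or more UMIs were left out. At an equal depth of 5000 randomly drawn UMIs per cell, 92 of 1598 macrophages were positive, which is 5.76% (4.67% to 7.01%), and 124 shallower cells, 6 of them positive, were left out of that count.

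**Figure D1:**
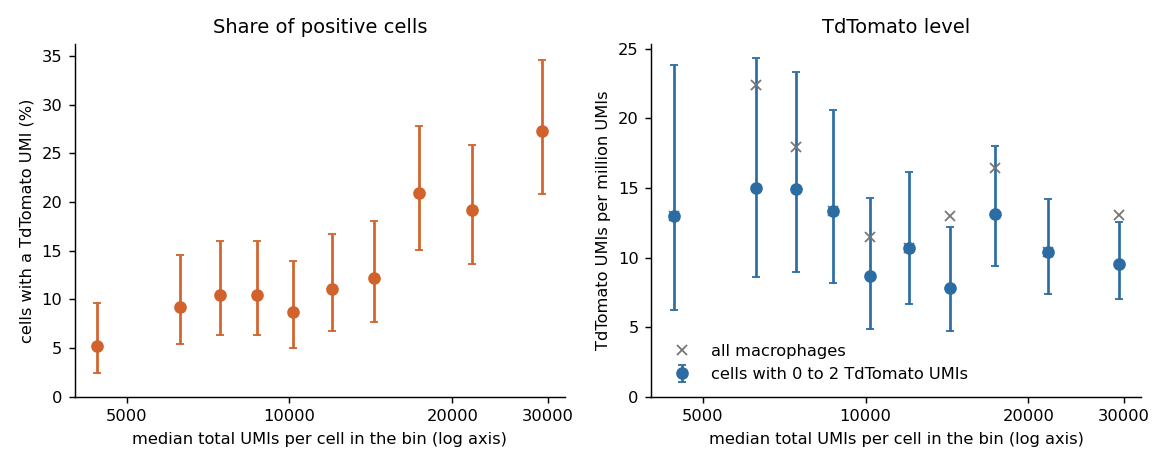
TdTomato detection in steady-state macrophages in 10 bins of total UMIs per cell. The left panel gives the percent of cells with a TdTomato UMI, which goes from 5.202% in the shallowest to 27.3% in the deepest bin, and the right panel gives the TdTomato level in CPM with the 9 cells of 3 or more UMIs left out (circles) or kept (crosses), where the intervals of all bins overlap. Bars are exact 95% intervals for counting error, and the horizontal axes are logarithmic.

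At equal depth, the positive share was similar in cells with and without UMIs of Timd4, Lyve1 or Ccr2. Of the 599 cells with a Timd4 UMI, 35 were positive (5.84%, 4.10% to 8.03%), and of the 999 cells without, 57 were (5.71%, 4.35% to 7.33%). Cells with and without a Lyve1 UMI had 5.83% and 5.65%. For Folr2 the shares were 5.91% (84 of 1421) and 4.52% (8 of 177, 1.97% to 8.71%). The share was 5.98% (28 of 468) in cells with Lyve1 but not Timd4. It was 5.81% (15 of 258) in cells with Ccr2 and neither Timd4 nor Lyve1, and 5.13% (14 of 273) in cells with none of these 3. Cells with and without a Ccr2 UMI had 5.57% and 5.86%. Across 4 equal bins of the summed MHC class II level, from the lowest to the highest, the share was 5.50%, 5.01%, 6.00% and 6.52%. All of these intervals overlap widely. Without equal depth the share was 15.5% with and 10.8% without a Timd4 UMI, but these cells had medians of 14047.5 and 8578 UMIs.

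Several other gates gave shares that lay further apart, each on few positive cells. Plac8 and Ly6c2 are genes of monocytes and of macrophages that have recently come from them. At equal depth 8 of 231 cells with a Plac8 UMI were positive (3.46%, 1.51% to 6.71%), against 6.14% of those without. Of 66 cells with a Ly6c2 UMI, 1 was positive (1.52%, 0.0384% to 8.16%), against 5.94% of those without. At full depth the shares were 13.2% against 13.6% for Plac8 and 13.6% against 13.5% for Ly6c2. These cells were not of equal depth, with medians of 15990 against 9798 UMIs for Plac8 and 17835.5 against 10540.5 for Ly6c2. At equal depth, cells with UMIs of at least 3 cell cycle genes were positive in 4.50% (31 of 689), against 6.71% (61 of 909) of the others. At full depth the order turned, with 15.2% against 8.15%, at medians of 13233 and 6977 UMIs. Cells with an EYFP UMI were positive at equal depth in 4.44% (15 of 338) and those without in 6.11% (77 of 1260). At full depth these shares were 14.4% and 12.9%, at medians of 13738 and 9775.5 UMIs. The equal-depth share was 8.62% (10 of 116, 4.21% to 15.3%) in cells with both Y-linked and Xist UMIs and 7.52% (36 of 479) with neither. It was 4.98% (14 of 281) with Y-linked UMIs alone and 4.43% (32 of 722) with Xist alone. At equal depth the intervals overlap in each of these comparisons.

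**Figure D2:**
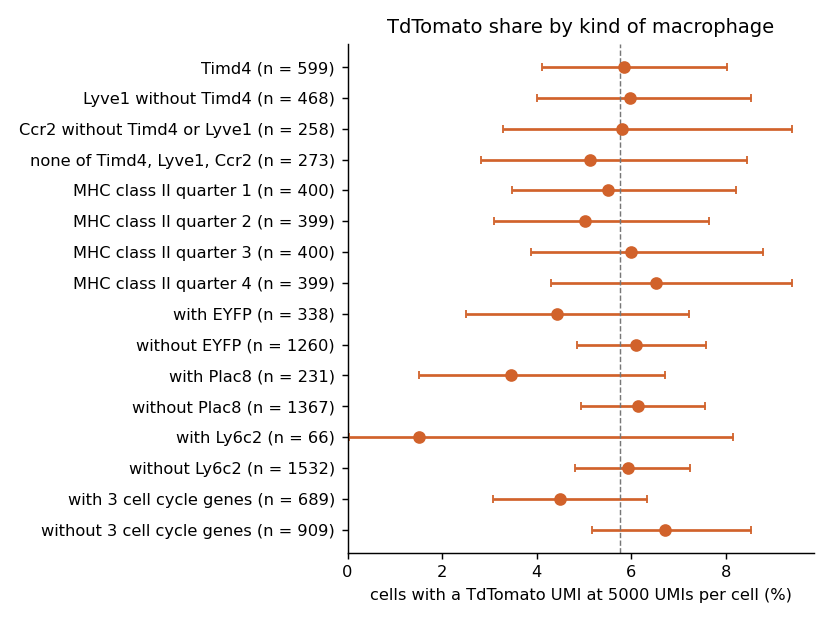
Percent of steady-state macrophages with a TdTomato UMI after every cell was reduced to 5000 UMIs, by the other RNA found in the cell (n, cells of the kind). Points are shares with exact 95% intervals for counting error and the dashed line is the share in all 1598 cells, 5.76%, which lies within every interval.

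To compare expression, each positive cell was paired with a negative cell of nearly the same total. All 232 positive cells found a partner, the largest gap within a pair was 0.0565 on the log2 scale, and the medians were 15526 and 15522.5 UMIs. The pooled sets held 3926020 and 3924473 UMIs. C1q stood at a median of 206 and 201 per 10000 UMIs and the mitochondrial share at 3.31% and 3.06%, while the negative partners had more genes detected, 3685.5 against 3489.5. Summed expression of the 2 sets was close to identical. Of 2691 genes with at least 50 CPM in either set, 2545 (94.6%) lay within 1.2-fold, and the median log2 ratio was -0.01. A difference of at least 1.5-fold was found in 3 genes (0.111%) that were higher in positive cells and in 9 genes (0.334%) that were lower. None was 2-fold higher and 5 (0.186%) were 2-fold lower. Counting every negative cell, weighted to the depth of the positive cells, gave 2 higher and 7 lower of 2663 genes. With the top cell of each gene left out of each set, 3 (0.111%) and 7 (0.26%) of the 2691 genes were past 1.5-fold.

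**Figure D3:**
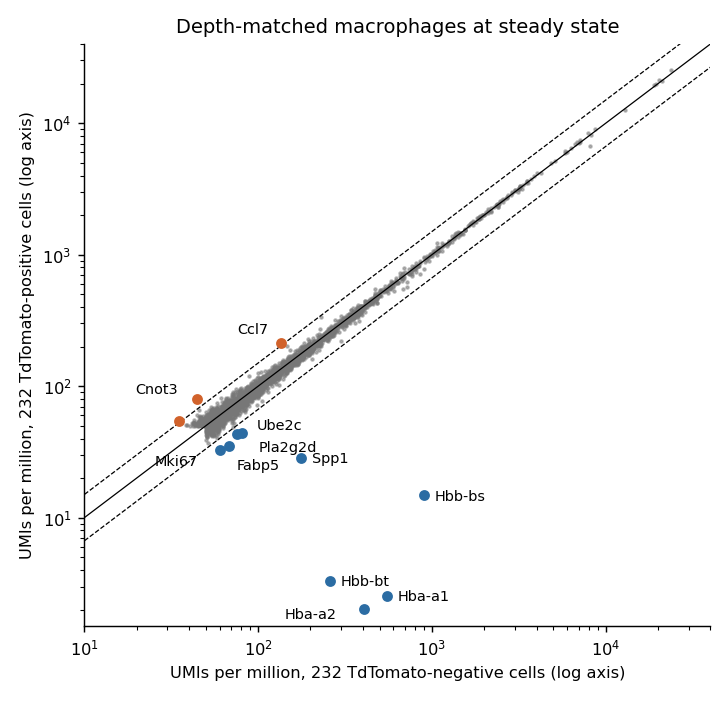
Level (CPM) in 232 TdTomato-positive macrophages against 232 depth-matched negative macrophages, both axes logarithmic, for 2691 genes (grey points). The solid line marks equality and the dashed lines 1.5-fold, and the 12 genes beyond them are coloured and most are named, with 3 higher (orange) and 9 lower (blue) in positive cells.

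Resident macrophage genes did not stand apart in positive cells. Timd4, a receptor for phosphatidylserine on dying cells (mm10 chr11:46810800-46844332, plus strand), had 119 CPM in positive and 108 CPM in negative cells, a ratio of 1.10 (0.961 to 1.26). It was detected in 151 and 148 of 232 cells. Lyve1, a hyaluronan receptor, had a ratio of 1.09 (1.02 to 1.17) and was detected in 180 and 183 cells. The ratio of Folr2, a folate receptor, was 1.06 (1.02 to 1.11). The complement receptor gene Vsig4 stood at 1.05 (0.873 to 1.27), and Cd163, the scavenger receptor for haemoglobin, was lower, at 0.874 (0.787 to 0.970). Of the 23 genes listed for resident macrophages, 19 reached 50 CPM and none of these differed 1.5-fold. Their median log2 ratio was 0.04, beside -0.01 for all genes. The median turned to -0.18 over the 113 pairs without a Ccr2 UMI, with Lyve1 at 0.879 and Folr2 at 0.878. A UMI of Timd4, Lyve1 or Folr2 was present in 228 positive and 226 negative cells, but Folr2 alone was also found in 37 of the 45 cells (82.2%) below the complement threshold.

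All 4 members below 50 CPM, Cd209f, Cd209g, Cd209d and Marco, had fewer UMIs in positive cells. Cd209f, a C-type lectin gene, had 55 UMIs against 111, but it was detected in 24 positive and 17 negative cells and 36 of the 111 UMIs came from 1 negative cell. Marco, a scavenger receptor gene, had 4 UMIs against 28.

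Monocyte and CCR2 genes were on the whole slightly lower in positive cells, by less than the 1.5-fold used to count a gene. Ccr2, the receptor that brings monocytes into tissue (mm10 chr9:124101950-124113557, plus strand), had 167 CPM against 180 CPM, a ratio of 0.927 (0.833 to 1.03), and was detected in 118 positive and 129 negative cells. Plac8 had a ratio of 0.814 (0.712 to 0.929) and was detected in 57 against 81 cells. Its direction turned without cells with 3 cell cycle genes, at 7.20 (2.81 to 23.5) over 34 pairs, and without cells with a Ccr2 UMI, at 1.21 (0.907 to 1.62) over 113 pairs. S100a4 and S100a6, small calcium-binding proteins abundant in monocytes, stood at 0.893 (0.831 to 0.959) and 0.899 (0.853 to 0.947). Of the 26 listed genes 12 reached 50 CPM, 10 of them with a ratio below 1 (1457 of all 2691 genes at 50 CPM had one), and the median log2 ratio was -0.08. No listed gene at 50 CPM differed 1.5-fold. The median was -0.0075 without matching, and it turned to 0.10 without cells with a Ccr2 UMI and to 0.16 without cells with 3 cell cycle genes.

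Ly6c2, which marks classical monocytes, had the lowest ratio of that list, on few UMIs. It had 41 UMIs in 19 positive cells and 109 UMIs in 23 negative cells, a ratio of 0.376 (0.256 to 0.543). The highest cell had 10 UMIs among the positive and 29 among the negative, and without these cells the ratio was 0.387 (0.247 to 0.593). Positive cells were lower in 4 of 5 equal bins of the pairs by depth. Against all negative cells weighted by depth it was 0.366. Its level of 10.4 CPM against 27.8 CPM lay below the 50 CPM minimum, so it is not among the genes counted.

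MHC class II genes were a little higher in positive cells. Cd74, the chaperone of class II molecules, had a ratio of 1.08 (1.07 to 1.09), and H2-Aa and H2-Ab1, which encode their chains, 1.05 (1.03 to 1.07) and 1.04 (1.03 to 1.06). All 6 of the 10 listed genes that reached 50 CPM had ratios above 1 (1234 of all 2691 genes at 50 CPM had one), with a median log2 ratio of 0.08 and none at 1.5-fold. Of the 10 listed genes 3 had a ratio below 1, all of them under 50 CPM. Without matching the median was 0.0183 and Cd74 stood at 1.02 (1.01 to 1.03). These counting intervals are narrow because the genes are abundant, and they leave out the spread between cells. The direction did not hold without cells that had an Mki67 or Top2a UMI, where the median was -0.04 over 171 pairs, or without cells with 3 cell cycle genes, where it was also -0.04, over 34 pairs.

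The Cx3cr1 locus, which drives the Cre, gave no higher level in positive cells. Cx3cr1, the fractalkine receptor gene (mm10 chr9:119901616-120069879, minus strand), had 246 CPM against 274 CPM, a ratio of 0.897 (0.821 to 0.979), and was detected in 189 and 190 of 232 cells. A single negative cell held 131 of the 1077 negative UMIs, and with the top cell of each set left out the ratio was 0.995 (0.909 to 1.09). EYFP, transcribed from the same locus, had 161 UMIs against 173, a ratio of 0.930 (0.746 to 1.16), in 99 and 103 cells. CreERT2 had 5 UMIs against 2, too few to compare. The Cx3cr1 ratio was 1.28 (1.02 to 1.61) in the 35 cells with 2 or more TdTomato UMIs against their partners.

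Leaving aside haemoglobin genes, 5 of the 12 genes past 1.5-fold had UMIs in at least 20 cells and the same direction in at least 4 of 5 depth bins, and are given with their cells. Ccl7, a chemokine that attracts monocytes through CCR2 (mm10 chr11:82045712-82047525, plus strand), was the only 1 of them that was higher. It had 213 CPM against 135 CPM, a ratio of 1.57 (1.41 to 1.76), yet it was detected in 139 of 232 cells of each set. The highest 3 positive cells held 158, 81 and 69 of 835 UMIs, and the highest negative cell 56 of 531. Without the top cell of each set the ratio was 1.42 (1.27 to 1.61), against all negative cells weighted by depth 1.32, without cells with an Mki67 or Top2a UMI 0.994, without cells with a Ccr2 UMI 2.71, and after thinning to 5000 UMIs 0.772.

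Its neighbours in the chemokine cluster on chromosome 11 had smaller ratios. Ccl12 stood at 1.45 (1.33 to 1.58), Ccl8 at 1.35 (1.17 to 1.55) and Ccl2 at 1.17 (1.06 to 1.29). They were detected in 170 positive against 175 negative, 89 against 104 and 172 against 167 cells. Without the top cell of each set Ccl8 was at 1.13 (0.971 to 1.32) and Ccl2 at 1.09 (0.978 to 1.21). The direction of Ccl8 and Ccl2 turned with the cells that entered. Ccl8 was at 0.310 (0.249 to 0.384) over 113 pairs without a Ccr2 UMI, 0.418 (0.290 to 0.595) over 35 pairs with at least 2 TdTomato UMIs in the positive cell, and 0.333 (0.152 to 0.676) over 34 pairs without 3 cell cycle genes. Ccl2 was at 0.809 (0.712 to 0.919) over 171 pairs without an Mki67 or Top2a UMI. Among 26 listed inflammatory cytokines and chemokines 14 reached 50 CPM, with a median log2 ratio of 0.20 and 1, Ccl7, at 1.5-fold. The median was 0.113 with the top cell of each set left out. Tnf stood at 1.22 (1.02 to 1.46) and Cxcl2 at 1.15 (1.09 to 1.21). Il1b, at 0.993 (0.842 to 1.17), did not share the direction.

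Spp1, Fabp5 and Lgals3, genes of lipid-handling and matrix-remodelling macrophages, were lower in positive cells, and a few negative cells held many of their UMIs. The lists that hold these genes did not share the direction. Of the lipid and lysosome genes, 14 of 20 at 50 CPM had a ratio above 1, with a median log2 ratio of 0.02. Of the matrix and remodelling genes 5 of 6 did, with a median of 0.08, beside 1234 of all 2691 genes. Spp1, which encodes osteopontin (mm10 chr5:104435118-104441050, plus strand), had 112 UMIs against 694, a ratio of 0.161 (0.131 to 0.197), although it was detected in 68 positive and 74 negative cells. The 4 highest negative cells held 193, 157, 118 and 94 of the 694 UMIs, and the highest positive cell held 8. Those 4 cells also held 141 of 155 negative UMIs of Gpnmb, 141 of 267 of Fabp5, 833 of 2838 of Lgals3 and 635 of 2661 of Ctsd. Without them, and with all 232 positive cells kept, the Spp1 ratio was 0.825 (0.635 to 1.07). Gpnmb went from 0.232 (0.157 to 0.335) to 2.50 (1.32 to 5.02), Fabp5 from 0.513 (0.414 to 0.633) to 1.06 (0.824 to 1.36), and Lgals3 from 0.792 (0.749 to 0.837) to 1.09 (1.03 to 1.16). Taking high cells from the negative set alone can only raise such ratios, so values above 1 are not read as a difference. With the top cell left out of each set, Spp1 stood at 0.208 (0.166 to 0.257), Fabp5 at 0.597 (0.470 to 0.754) and Lgals3 at 0.807 (0.760 to 0.856). Fabp5 was detected in 60 positive and 79 negative cells and was lower in 5 of 5 depth bins. Over all 1722 macrophages, 7 cells had at least 20 Spp1 UMIs and none of them had a TdTomato UMI, which allows a share of up to 41.0%.

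In the paired sets, genes of the cell cycle were lower in positive cells as a group. Mki67, the proliferation marker (mm10 chr7:135689784-135716361, minus strand), had 128 UMIs in 40 positive cells and 236 UMIs in 48 negative cells, a ratio of 0.542 (0.434 to 0.675). The mitotic ubiquitin-conjugating enzyme gene Ube2c stood at 0.541 (0.446 to 0.653), detected in 52 and 55 cells, and Top2a, the DNA topoisomerase of dividing cells, at 0.727 (0.605 to 0.872). Of 30 listed genes 29 were in the table and 27 of these had a ratio below 1, but most of them lay under 50 CPM. All 8 at 50 CPM had a ratio below 1, as did 1457 of all 2691 genes at 50 CPM. The median log2 ratio of the 8 was -0.35, and 2 of them, Mki67 and Ube2c, were 1.5-fold lower. UMIs of at least 3 listed genes were present in 198 cells of each set. Against all negative cells weighted by depth Mki67 stood at 0.683, Ube2c at 0.681 and Top2a at 0.912 (0.752 to 1.11). With pairs matched on detected genes they stood at 0.690, 0.608 and 0.855 (0.707 to 1.03), and without matching at 0.784, 0.751 and 1.02. The level of Mki67 was 60.1 CPM in the negative partners and 41.6 CPM in all 1490 negative cells, so the size of the difference depended on the partners. When positive and negative cells with a Ccr2 UMI were both left out, which kept 113 of the 232 positive cells, the direction turned, with Mki67 at 1.19 (0.852 to 1.68), Top2a at 1.88 and Ube2c at 2.04 (1.45 to 2.90).

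Pla2g2d, a secreted phospholipase gene (mm10 chr4:138775735-138782046, plus strand), had, of the 12 genes, the difference that rested least on single cells. It had 169 UMIs in 92 positive cells and 298 UMIs in 105 negative cells, a ratio of 0.567 (0.467 to 0.687). It was lower in 5 of 5 depth bins, and the highest cells held 6 and 14 UMIs. Without the top cell of each set the ratio was 0.574 (0.470 to 0.698), and against all negative cells weighted by depth it was 0.619. With pairs matched on detected genes instead of UMIs it was 0.855. Mmp13, a collagenase gene, was higher in 5 of 5 bins at a ratio of 1.45 (1.19 to 1.76) and was detected in 107 against 89 cells, just under 1.5-fold, and it stood at 1.24 against all negative cells weighted by depth and at 0.777 over the 35 pairs with at least 2 TdTomato UMIs.

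**Figure D4:**
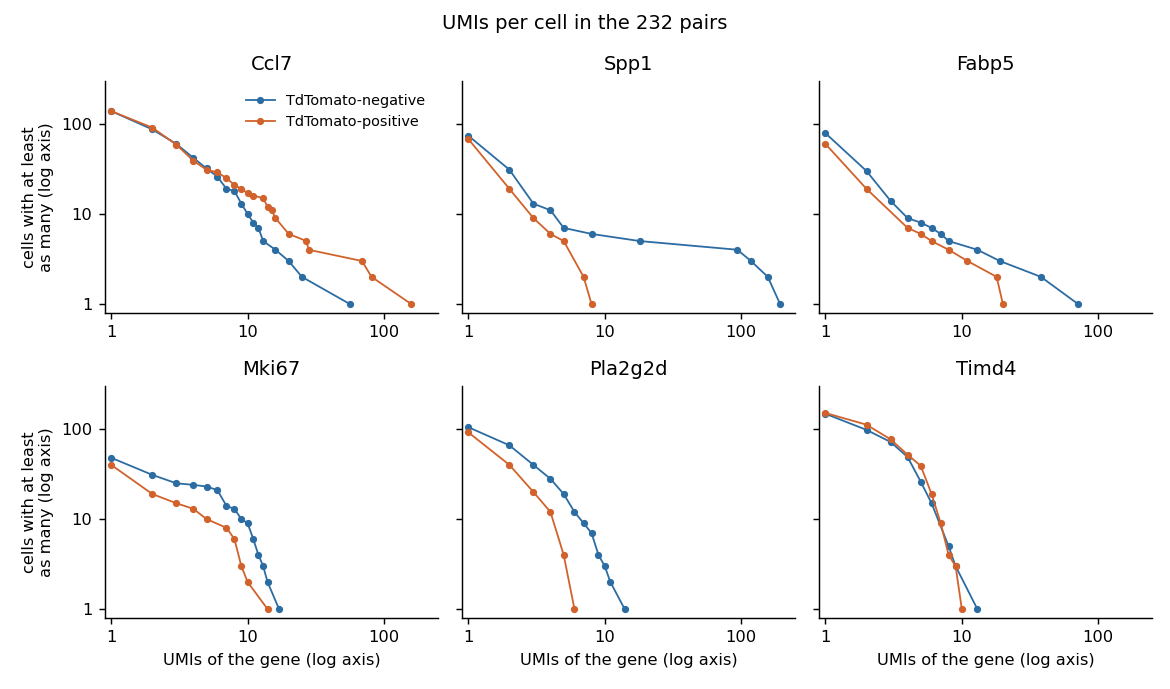
Number of cells (vertical, logarithmic) that held at least a given number of UMIs (horizontal, logarithmic) in the 232 TdTomato-positive (orange) and 232 depth-matched negative (blue) macrophages, for Ccl7, Spp1, Fabp5, Mki67, Pla2g2d and, for comparison, Timd4. The Spp1 curves part at 4 negative cells with 94 to 193 UMIs and the Ccl7 curves at 3 positive cells with 69 to 158 UMIs, while the Pla2g2d curves lie apart along most of their length and the Timd4 curves run together.

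The remaining genes past 1.5-fold did not meet that rule or were outside it, and include Ube2c, given above. Of 2155 negative UMIs of the haemoglobin gene Hba-a1, 2141 came from 1 cell, as did 3465 of 3514 of Hbb-bs. Without the top cell of each set the ratios were 0.571 (0.208 to 1.46) and 1.12 (0.749 to 1.68). Hba-a2 and Hbb-bt, with 1601 and 1015 negative UMIs, had 1589 and 1008 of them in a single cell. Cnot3, a subunit of the mRNA deadenylase complex, had 314 UMIs against 175, and 85 and 70 of them were in 2 positive cells and 61 in 1 negative cell.

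The further listed groups given here, which are not all of the rest, lay close to equality. Macrophage transcription factors had a median log2 ratio of 0.06 (15 of 25 genes at 50 CPM), complement genes 0.01 (9 of 12), interferon response genes -0.06 (8 of 20), immediate early genes 0.09 (15 of 20), heat shock genes 0.04 (11 of 12) and MHC class I genes -0.01 (10 of 11), with no gene at 1.5-fold in these groups. C-type lectin genes stood at -0.07 (8 of 14), with all 8 below a ratio of 1, beside 1457 of all 2691 genes. Glycolysis and hypoxia genes stood at -0.09 (10 of 20), Toll-like receptor genes at 0.10 (4 of 14) and iron and heme genes at -0.01 (9 of 14). No gene of these was at 1.5-fold either. Spi1, the gene of a transcription factor of the macrophage lineage, had a ratio of 1.02 (0.965 to 1.08). Retnla, a gene of alternative activation, stood at 1.15 (1.10 to 1.2004). RNA of other cell types was about as frequent in both sets. UMIs of at least 3 markers were found in 36 positive and 43 negative cells for DCs, 17 and 20 for monocytes, 14 and 12 for endothelial cells, 25 and 26 for fibroblasts and 74 and 70 for cardiomyocytes. For red blood cells the numbers were 0 and 2, and the part of such RNA in the ratios of other genes was not tested.

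The 9 cells with 3 or more UMIs held 3, 3, 4, 5, 7, 8, 10, 10 and 10 TdTomato UMIs among totals from 6328 to 43593. A Timd4 UMI was present in 2 of the 9 (22.2%, 2.81% to 60.0%), where negative cells of like depth had it in 69.8% on average. Lyve1 was present in 6 of 9 against 79.2%, Folr2 in 8 of 9 against 96.1%, Ccr2 in 6 of 9 against 60.4%, and EYFP in 4 of 9 against 51.3%. The cell with 8 UMIs among 6328 had 2 Folr2 UMIs and none of Timd4, Lyve1 or Ccr2, and its summed Cd74, H2-Aa, H2-Ab1 and H2-Eb1 made up 1321 of every 10000 UMIs. For Timd4 that average lies outside the interval, which describes 9 cells picked for their reporter level. In the 26 cells with exactly 2 UMIs, Timd4 was present in 19 (73.1%, 52.2% to 88.4%).

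In the day 11 library the same comparison gave larger differences. TdTomato was detected in 68 of 4406 macrophages (1.54%, 1.2004% to 1.95%) at 1.67 CPM, and in 0 of 267 other cells, which allows a share of up to 1.37%. After thinning to 5000 UMIs the day 11 share was 0.877% against 5.76% at steady state. With 68 pairs, 115 of 2746 genes (4.19%) were at least 1.5-fold higher and 87 (3.17%) at least 1.5-fold lower, 15 (0.546%) and 19 (0.692%) were 2-fold higher and lower, and 64.0% lay within 1.2-fold. Smaller sets gave more genes past 1.5-fold at steady state too, 75 higher and 159 lower over 35 pairs with at least 2 TdTomato UMIs, so the counts of the libraries are not on the same footing. Timd4 had a ratio of 2.92 (1.52 to 5.98) against 1.10 at steady state. The day 11 ratio of Timd4 rests on 38 UMIs against 13, at 49.0 and 16.8 CPM, below the 50 CPM minimum. At steady state there were 467 against 425. For Ccr2 the day 11 and steady-state ratios were 0.594 (0.470 to 0.748) and 0.927, and for Ly6c2 0.0851 (0.0223 to 0.233) and 0.376. The day 11 value of Ly6c2 rests on 4 UMIs against 47, and against all day 11 negative cells weighted by depth it was 0.237. The resident list had a median log2 ratio of 0.68 at day 11 and 0.04 at steady state, and the monocyte list -0.67 and -0.08. Both libraries differ in depth and each is a single library, so the difference between them was not tested.

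**Figure D5:**
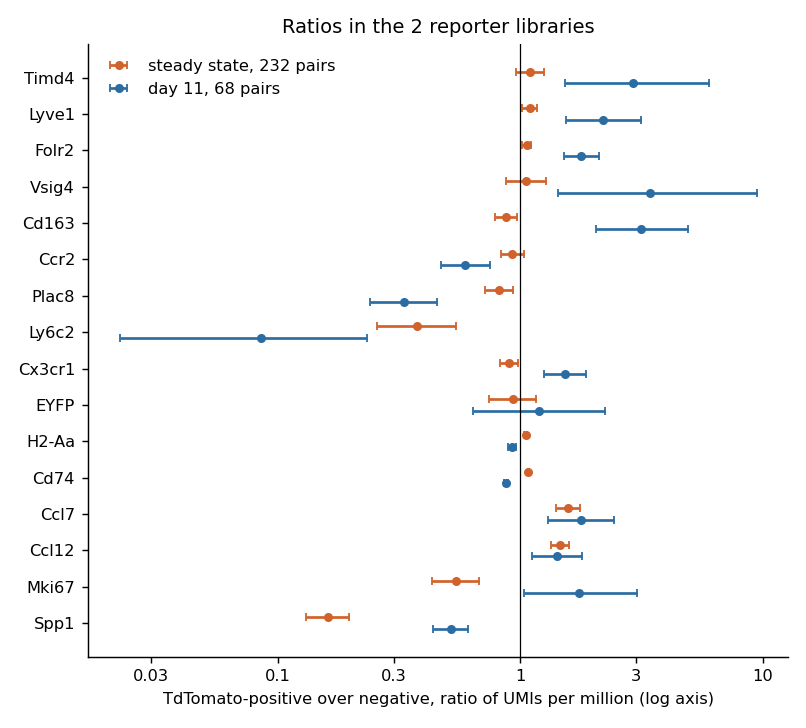
Ratio of the level (CPM) in TdTomato-positive over depth-matched negative macrophages (logarithmic axis) at steady state (orange, 232 pairs) and at day 11 after infarction (blue, 68 pairs), with exact 95% intervals for counting error. At steady state Timd4, Lyve1, Folr2 and Ccr2 lie between 0.927 and 1.10, while at day 11 the first 3 lie between 1.78 and 2.92 and Ccr2 at 0.594.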

How the data were processed

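Single cells of mouse heart were sequenced on the 10x Chromium platform with 3′ v2 chemistry, per the labels' protocols. The deposited values are raw UMI counts per gene and barcode, made with Cell Ranger and STAR on mm10, per the submitters' processing notes; no source used here gives versions or how barcodes were called. Gene positions are from GENCODE vM21 (mm10). Members and gene lists were chosen with earlier results of these data known. The filter removed 39 steady-state barcodes. Doublets were kept; removing the 26 highest Scrublet scores (scanpy 1.11.5) was an alternative. The median depth of members was 10890 UMIs, with a range of 3273 to 50189.

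Positive and negative cells were paired by optimal assignment on log2 total UMIs (largest gap allowed 0.1) with scipy 1.17.1. UMIs were summed per set and divided by the non-reporter total (CPM). Ratios have exact conditional binomial intervals and shares have Clopper-Pearson intervals. Both treat UMIs or cells as independent. A gene was counted at 50 CPM or more in either set and a 1.5-fold difference. Genes were named when they also had UMIs in at least 20 cells and the same direction in 4 of 5 depth bins; haemoglobin, ribosomal, mitochondrial and sex-linked genes were not, and members of the fixed lists could be named besides. The ratio and its interval were tested on simulated pooled counts without a spread between cells, so that test does not cover genes carried by single cells. Alternatives were other matching, thinning, TdTomato, C1q, mitochondrial and CPM thresholds, and sets of cells left out. Of the genes past 1.5-fold, 1 is not reported here.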

Additional observations from a re-analysis of the deposited data

Results flagged for a closer look

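In 4 results the direction was opposite in the steady-state and the day 11 library, with 1 library each and no test of the difference. The Cx3cr1 ratio of positive over negative cells was 0.897 at steady state and 1.53 at day 11. At steady state it was 0.995 with the top cell of each set left out, 1.03 without matching and 1.28 with at least 2 TdTomato UMIs. The Mki67 ratio was 0.542 and 1.75, and the median log2 ratio of the cell cycle genes -0.35 and 0.60. For Mki67 the day 11 value rests on 42 UMIs against 24 (1.04 to 3.02), and the steady-state ratio was 1.19 without cells with a Ccr2 UMI. The median log2 ratio of the MHC class II genes was 0.0752 and -0.18. At steady state it was -0.0439 without cells with an Mki67 or Top2a UMI.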

How the results depend on the processing

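No paired analysis was possible because each group is 1 library and the labels give no shared replicate numbers. Alternative values of the shares, gene counts, list medians and the Timd4, Ccr2 and Cx3cr1 ratios were set against the main values. Of these, 99 stayed within the main interval or, for counts, within 1.5 times the main count, and 48 did not. For a list median, the interval used was that of a middle gene, so it depends on the UMIs of that gene. For the Timd4 difference in share, it was that of the share with Timd4, with the other share held fixed. The cause of the moves was not tested. The share of positive macrophages was 3.95% at 3000 UMIs, 13.5% without thinning and 0.626% with at least 2 TdTomato UMIs, and the Timd4 difference in share was 4.67 percentage points without thinning against 0.137. Without matching, Cx3cr1 stood at 1.03, the monocyte median at -0.0075 and the MHC class II median at 0.0183. The MHC class II median was 0.0403 with weighting over depth bins, 0.101 at C1q of 80 and 0.0998 at C1q of 20. With pairs matched on detected genes, Ccr2 stood at 1.04 and Cx3cr1 at 1.03. Smaller sets gave more genes past 1.5-fold. After thinning to 5000 (92 positive cells) these were 43 higher and 71 lower, with Timd4 0.936, Ccr2 1.12, MHC class II 0.10 and Ccl7 0.772. With at least 2 TdTomato UMIs (35 pairs) they were 75 and 159, with Ccr2 0.803, Cx3cr1 1.28, the monocyte median -0.36, MHC class II 0.32 and Cnot3 0.894. Leaving out cells with 3 cell cycle genes, 1305 of 1722 cells, left 34 pairs with 261 and 296 genes, Cx3cr1 1.21, monocyte 0.16, MHC class II -0.0439, Hbb-bs 2.50 and Spp1 1.80. Leaving out cells with a Ccr2 UMI (113 pairs) gave 35 and 30 genes, Timd4 0.942, monocyte 0.10, MHC class II 0.13, Hbb-bt 1.499, Hbb-bs 1.22, Spp1 1.18, Fabp5 1.12, Ube2c 2.04, Mki67 1.19 and Cnot3 0.862. Only 4 pairs had no Timd4, Lyve1 or Folr2 UMI, with 1496 and 1338 genes, Ccr2 2.35, Cx3cr1 1.15, resident -0.32, monocyte 0.61 and MHC class II -0.11. A minimum of 20 CPM gave 20 and 45 genes and 100 CPM gave 1 and 5. Alternatives chosen after seeing the data were the top cell of each gene left out, with Cx3cr1 0.995, Hbb-bt 1.71 and Hbb-bs 1.12, and cells with an Mki67 or Top2a UMI left out (171 pairs), with 7 and 14 genes, MHC class II -0.0439 and Ccl7 0.994. The Timd4 ratio ranged from 0.936 to 1.17 over 17 alternatives. Depth limits the TdTomato call: most positive cells held 1 UMI, and a negative cell with the recombined allele cannot be told apart from a cell without it.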
